A study of Mus musculus with 2 samples.

Results

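A set of 10 of the 55536 genes in the deposited gene tables is described here in newborn mouse calf muscle: enzymes and helpers that modify, fold, trim or crosslink fibrillar collagen. They were chosen by name and do not cover every gene with such a role. The set holds the prolyl 4-hydroxylase alpha subunits P4ha1, P4ha2 and P4ha3, the lysyl hydroxylases Plod1, Plod2 and Plod3, the collagen chaperone Serpinh1, the procollagen C-proteinase enhancer Pcolce, and the lysyl oxidases Lox and Loxl1. All 10 symbols matched a gene. Total RNA, depleted of ribosomal RNA and carrying ERCC spike-in transcripts, had been sequenced from the gastrocnemius of female B6CASTF1/J mice, the F1 cross between C57BL/6J and CAST/EiJ, at an age of 4 days. The series holds 1 group, with 1 library from each of 2 animals (labelled 3 and 4) and 300 ng of RNA in each library, so no treatment, genotype or age is compared. Replicates 1 and 2 share 1 donor record, and whether the animals came from 1 litter is not known from the labels. Each SD of a level or share is therefore the spread between 2 animals, and no p-value is given.

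Fibrillar collagens are made as procollagen chains in the endoplasmic reticulum, where prolines are hydroxylated so that the triple helix is stable at body temperature, and where lysines are hydroxylated and in part glycosylated. A dedicated chaperone binds the folded helix until it leaves for the Golgi. Outside the cell the propeptides are cut off, fibrils form, and lysyl oxidases turn lysine and hydroxylysine side chains into aldehydes that react to form crosslinks. In skeletal muscle most of this collagen comes from fibroblasts of the connective tissue sheaths, and tendon cells at the muscle ends use the same enzymes.

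The libraries held 30961087 and 36246031 expected counts. The labelled tissue fits its fibre markers: Acta1, the skeletal muscle actin, reached 11663 and 13964 TPM (transcript abundance normalised for length and library total) in replicates 1 and 2, and all 6 fibre genes examined were detected, summing to 34168 and 40625 TPM. Markers of some other cells also differed between the animals, while those of fibroblasts and macrophages were close. The 6 tendon markers, all detected, summed to 238 TPM in replicate 1 and 143 TPM in replicate 2. The 7 bone markers summed to 19.2 and 2.68 TPM, none reached 1 TPM in both libraries, and Ibsp, a bone matrix protein gene, had 471 and 0 counts. The 5 cartilage markers summed to 22.8 and 11.8 TPM, with Matn1 at 1 and 0 counts. The 6 fibroblast markers, all detected, summed to 509.9 and 503.1 TPM. The 6 red cell markers summed to 1235 and 230.04 TPM, and the 6 liver markers to 10.2 and 104.5 TPM. Sums were 226 and 209.5 TPM for 5 endothelial, 73.5 and 71.8 TPM for 5 macrophage, 348 and 273 TPM for 3 adipocyte and 2.73 and 4.35 TPM for 3 keratinocyte markers. In bulk tissue, fewer cells of a type and less RNA per cell cannot be told apart.

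All 10 collagen-processing genes were detected, which here means at least 1 TPM in each library, against 24% of all genes (13336 of 55536). Their median level was 19.1 TPM, above the median of 9.40 TPM over all detected genes. The levels spanned a wide range, with the chaperone Serpinh1 and the enhancer Pcolce far above the hydroxylases. Summed over the 10 genes, the level was 539 TPM in replicate 1 and 498 TPM in replicate 2. The genes drew 31869 and 33916 expected counts, and the least counted of them, P4ha3, had 442 and 427, so no level rests on a handful of reads.

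**Figure D1:**
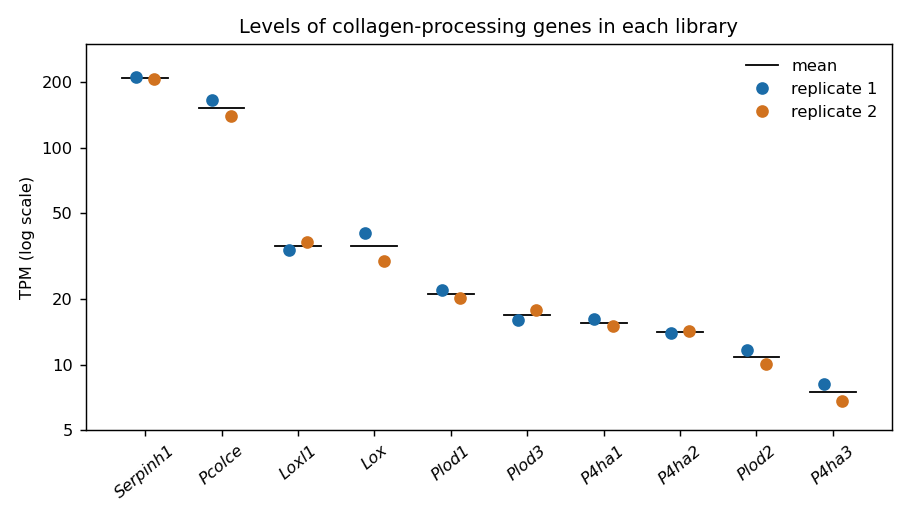
Level of each collagen-processing gene in TPM (log scale), ordered by mean, with 1 point for each of the 2 libraries and a bar at their mean. Serpinh1 (mean 209 TPM) and Pcolce (mean 152 TPM) stand apart from the other 8 genes, which lie between 6.81 and 40.5 TPM.

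The order by mean level was Serpinh1, Pcolce, Loxl1, Lox, Plod1, Plod3, P4ha1, P4ha2, Plod2 and P4ha3. The pairs Loxl1 and Lox, and Plod3 and P4ha1, had ranges over the libraries that overlapped, so their order is not set by these data. The other neighbours did not overlap in the gene tables, and the widest step was the 4.31-fold drop in mean between Pcolce and Loxl1. Serpinh1 exceeded Pcolce 1.37-fold, and Lox exceeded Plod1 1.66-fold. With 2 libraries, a lack of overlap is a weak criterion. The second set of deposited transcript tables, summed per gene, is called the other quantification below. In it P4ha2 (32.8 TPM) stood above Plod3 (28.1 TPM) and P4ha1 (27.7 TPM), so the order of these 3 genes is not set. The ranges of Serpinh1 (338 and 320 TPM) and Pcolce (323 and 283 TPM) overlapped there. So did those of Plod1 (36.3 and 31.9 TPM) and P4ha2 (34.5 and 31.1 TPM). The lack of overlap between Serpinh1 and Pcolce, and between Plod1 and P4ha2, thus held in the gene tables alone.

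The prolyl 4-hydroxylases add the hydroxyl groups that hold the triple helix together, as tetramers of catalytic alpha subunits with the disulfide isomerase P4hb. P4ha1 (ENSMUSG00000019916.14, chr10:59323296-59373304, plus strand, build mm10), the alpha subunit that predominates in most tissues, had 16.2 TPM in replicate 1 and 15.1 TPM in replicate 2. P4ha2 (ENSMUSG00000018906.14, chr11:54100095-54131665, plus strand) had 13.99 and 14.3 TPM. P4ha3 (ENSMUSG00000051048.17, chr7:100285520-100319699, plus strand), the least studied subunit, had 8.15 and 6.81 TPM. By the level of the whole gene, P4ha1 and P4ha2 were thus close to each other in both animals, and P4ha3 was the lowest of the 10 genes in both. Coding transcripts held 68.7% and 86.3% of the P4ha2 level, whereas P4ha1 has only coding transcripts annotated. By share of the summed alpha-subunit level, P4ha1 took 42.0% ± 0.382 (SD, n = 2), P4ha2 38.0% ± 2.14 and P4ha3 20.03% ± 1.76. The lead of P4ha1 depended on the quantification. In the other quantification P4ha2 led with 44.1% against 37.3% for P4ha1. There, coding transcripts held 61.6% and 83.4% of the P4ha2 level, and a mean of 27.2% was on the 758-nt coding entry ENSMUST00000135653.7. These shares of the whole gene therefore do not compare full-length coding transcripts. P4hb, which also serves as a general disulfide isomerase, stood at 206.5 and 203.6 TPM, or 5.39 and 5.62 times the 3 alpha subunits together.

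P4ha1 has a pair of 71-nt exons that are spliced in as alternatives to each other, and the pair is shown because most of the P4ha1 signal fell on one of them. Both are given from GENCODE M21 transcripts on mm10, on the plus strand and read 5′ to 3′, with capitals at the positions where the exons differ (29 of 71, 42 being identical).
P4ha1 upstream exon, chr10:59354340-59354410: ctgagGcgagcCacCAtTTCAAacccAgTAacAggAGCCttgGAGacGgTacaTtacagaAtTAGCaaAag
P4ha1 downstream exon, chr10:59355350-59355420: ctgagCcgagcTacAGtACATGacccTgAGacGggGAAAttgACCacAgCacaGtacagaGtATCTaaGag
Transcripts with the downstream exon made up 84.1% of the P4ha1 coding transcript level in replicate 1 and 86.3% in replicate 2, with a mean of 85.2% ± 1.58 (SD, n = 2). Those with the upstream exon made up 15.9% and 13.7%. The downstream exon thus led in both animals, and the other quantification placed it at 82.7% and 84.2%. These shares come from levels of whole annotated transcripts, not from reads over the exons alone. The transcript with the upstream exon is 4043 nt long, against 2918 and 2387 nt for those with the downstream exon. Differences outside the pair can therefore enter the shares. A separate 240-nt exon of P4ha1 (chr10:59348181-59348420), missing from 1 of its 3 annotated transcripts, was in 75.5% and 89.1% of the coding level. Its share differed more between the libraries and was lower, at 55.5% and 69.6%, in the other quantification. The transcript without this exon, ENSMUST00000092512.10, drew 254 and 119 expected counts. The quantification program's own SD for it was 57.25 and 69.7 counts, so the difference between the libraries is uncertain.

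P4ha2 carries a similar pair of alternative exons, of 60 and 66 nt, shown because neither of them dominated. Capitals mark bases that differ or have no partner when the exons are aligned end to end (37 bases are identical), again on the plus strand of mm10 from GENCODE M21.
P4ha2 upstream exon, chr11:54126238-54126297: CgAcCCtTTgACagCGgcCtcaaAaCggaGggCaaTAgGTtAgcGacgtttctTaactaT
P4ha2 downstream exon, chr11:54126346-54126411: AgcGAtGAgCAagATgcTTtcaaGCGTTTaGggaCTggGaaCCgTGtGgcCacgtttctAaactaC
Of the 8 coding transcripts of P4ha2, 3 hold an exon of the pair, and the annotation of the other 5 ends before it. Among those 3, the downstream exon took 62.4% of the level in replicate 1 and 57.8% in replicate 2, and the upstream exon 37.6% and 42.2%. The other quantification gave the downstream exon 61.8% and 51.9%. Both exons thus drew signal in both animals. Of all P4ha2 coding transcripts, the downstream exon was in 57.9% and 50.7%, and in 38.8% and 32.4% in the other quantification, where the 5 shorter transcripts took 7.90 and 9.79 TPM.

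Lysyl hydroxylases act on different lysines of the same chains. Plod1 (ENSMUSG00000019055.15, chr4:147909753-147936767, minus strand), whose enzyme works mainly on lysines of the helix, had 22.1 and 20.3 TPM. Plod3 (ENSMUSG00000004846.10, chr5:136987019-136996648, plus strand), whose enzyme also transfers sugars to hydroxylysine, had 16.2 and 17.9 TPM. Plod2 (ENSMUSG00000032374.14, chr9:92542223-92608428, plus strand), whose enzyme hydroxylates the telopeptide lysines from which the hard-tissue type of crosslink forms, had 11.6 and 10.1 TPM. By TPM the order Plod1, Plod3, Plod2 held in both animals, and Plod1 was 1.90 and 2.01 times Plod2. By expected counts Plod2 (984) and Plod3 (971) were about level in replicate 1, against 1032 and 1282 in replicate 2. In the gene tables' quantification the 600-nt Plod3 entry ENSMUST00000127100.1 held 24.6% and 24.0% of the Plod3 TPM, on 55.9 and 68.3 counts. The other quantification gave that entry 4.63% and 3.43%. Plod1 took 43.2% ± 1.55 of the summed level of the 3 genes, Plod3 34.7% ± 3.28 and Plod2 22.1% ± 1.73 (SD, n = 2 each). Plod3 overlaps Znhit1 on the opposite strand, and Plod2 overlaps the unclassified transcript Gm38391 on the opposite strand. Since the sources do not say how strand entered the counting, reads of such partners may be mixed.

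Plod2 is known for a 63-nt cassette exon that separates a long form of the enzyme from a short one. The exon is printed in capitals with 20 nt of its neighbouring exons in lower case on each side, as spliced in transcript ENSMUST00000160359.1 (exon 14 of 20, plus strand, mm10, GENCODE M21).
Plod2 cassette exon, chr9:92601985-92602047: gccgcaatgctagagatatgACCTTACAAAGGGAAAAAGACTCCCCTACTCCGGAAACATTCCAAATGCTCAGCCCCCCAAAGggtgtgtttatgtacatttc
The long form, with the exon, made up 92.5% of the Plod2 coding transcript level in replicate 1 and 97.3% in replicate 2, a mean of 94.9% ± 3.37 (SD, n = 2). It drew 863 and 968 expected counts, while the short form, ENSMUST00000070522.13, drew 69.8 and 27.5. The quantification program's own SD for the short form was 36.9 and 25.1 counts, close to its value in replicate 2. In the other quantification the exon was in 71.2% and 86.4%, so the long form led in both animals by both methods while the size of its lead depended on the method.

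**Figure D2:**
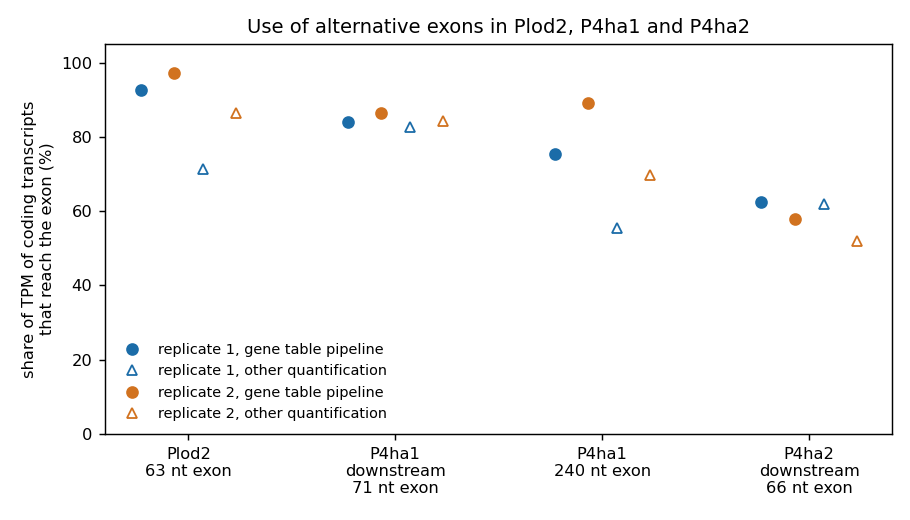
Share (in %) of 4 alternative exons of Plod2, P4ha1 and P4ha2 in the TPM of the coding transcripts that reach them, by library and by quantification (for P4ha2, 3 of its 8 coding transcripts). The Plod2 cassette exon has the highest share in the gene tables' quantification (92.5% and 97.3%) against 71.2% and 86.4% in the other one, while the P4ha1 downstream exon lies between 82.7% and 86.3%.

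Serpinh1 (ENSMUSG00000070436.12, chr7:99345376-99353239, minus strand) encodes the chaperone, also called HSP47, that binds folded procollagen in the endoplasmic reticulum. It was the highest of the 10 genes, with 211 and 207 TPM (mean 209 ± 3.32, SD, n = 2), and stood at percentile 97.6 of the detected genes. The value was nearly the same in both animals. Its level was near that of P4hb. Its best-known client chain, Col1a1, was 13.97 and 10.6 times as high as Serpinh1. The 7 annotated Serpinh1 transcripts are all coding and differ in their first exons. The gene tables' quantification gave 70.6% of the Serpinh1 level to ENSMUST00000207849.1, whereas the other quantification gave 73.8% to ENSMUST00000169437.8. Both encode the same 1251-nt coding length, so which first exon is in use cannot be read from these tables.

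Pcolce (ENSMUSG00000029718.14, chr5:137605103-137613784, minus strand) encodes the secreted protein that speeds removal of the C-propeptide by the Bmp1 proteinase. It had 165 TPM in replicate 1 and 140 TPM in replicate 2 (mean 152 ± 17.7, SD, n = 2), at percentile 96.7 of the detected genes. It was the second highest of the 10 genes in both animals. Pcolce exceeded Bmp1 4.20-fold and 3.84-fold by TPM. Pcolce2, the other member of its family, had 2.78 and 2.16 TPM, which left Pcolce with 98.4% ± 0.0971 of the family level. Coding transcripts held 73.0% and 85.0% of the Pcolce level, and transcripts with a retained intron held 26.6% and 13.98%. The other quantification gave 62.2% and 69.1% to coding transcripts and 37.1% and 30.4% to those with a retained intron. Pcolce overlaps Fbxo24 on the same strand and Gm36266 on the opposite strand.

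The lysyl oxidases start crosslinking outside the cell. Lox (ENSMUSG00000024529.14, chr18:52516067-52529867, minus strand), the founding enzyme of the family, acts on both collagen and elastin and had 40.5 TPM in replicate 1 and 29.98 TPM in replicate 2. Loxl1 (ENSMUSG00000032334.10, chr9:58287738-58313186, minus strand), known above all for elastic fibres, had 33.9 and 36.9 TPM. Their order switched between the animals: Lox over Loxl1 was 1.19 in replicate 1 and 0.813 in replicate 2. The other quantification gave the same switch, at 1.31 and 0.886. Among the 5 genes of the family, Loxl2 took 36.3% ± 3.31 of the summed level, Loxl1 29.1% ± 2.27, Lox 28.9% ± 5.56, Loxl3 5.05% ± 0.152 and Loxl4 0.679% ± 0.135 (SD, n = 2 each). Loxl2, with 41.8 and 46.4 TPM, was ahead of Lox and Loxl1 in both animals. Lox overlaps AC161119.1 on the opposite strand.

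**Figure D3:**
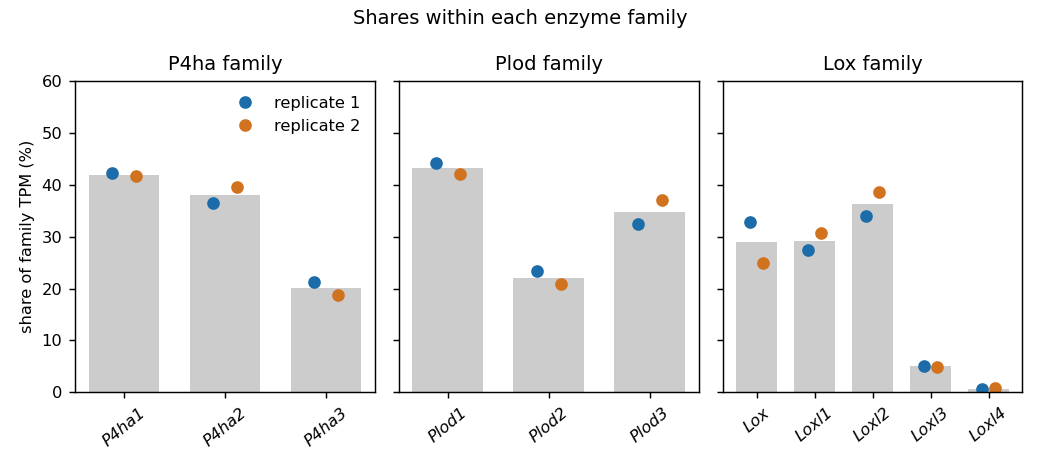
Share of each gene in the summed TPM of its family (%), for the P4ha, Plod and Lox families, with points for replicates 1 and 2 and a bar at the mean. P4ha1 and Plod1 have the largest mean shares of their families (42.0% and 43.2%), and Loxl2 has that of the Lox family (36.3%).

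Between the animals, 7 of the 10 genes were lower and 3 higher in replicate 2. These ratios are log2 of replicate 2 over replicate 1 in expected counts, scaled by trimmed mean of M values, and their intervals cover counting error only. Their median was -0.05, against 0.02 for the 12257 genes that averaged 100 counts or more, of which 55.3% were higher in replicate 2. None of the 10 was over 1.5-fold apart, where 2.46% of those genes were, and none was over 2-fold apart, where 0.718% were. At these backgrounds a count of 0 in 10 genes is close to what all genes show. The median size of the log2 ratio, without its sign, was 0.123 for the 10 genes and 0.115 for all genes.

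Lox differed most. Its 5258 counts in replicate 1 and 4420 in replicate 2 gave a log2 ratio of -0.43 (95% counting interval -0.49 to -0.37), or 0.744-fold. The interval did not hold 0. Of all genes, 5.40% had a larger ratio in either direction and 3.42% had a lower one. Col1a1, the main type I collagen chain, had the same ratio (-0.43), with 2951 TPM in replicate 1 and 2181 TPM in replicate 2. Col1a1 over Lox was accordingly 72.9 and 72.8. Col1a1 is 1 of 17 substrate genes read below, whose median log2 ratio was -0.06. Col1a2 was near Col1a1, at -0.45, whereas Col3a1 had 0.08 and Col5a1 had 0.07. Tendon markers were lower in replicate 2 too, with a median log2 ratio of -0.86. Of the 6, 4 were over 1.5-fold lower in replicate 2, as were 1.66% of all genes. Bone markers summed to 19.2 and 2.68 TPM. The medians were -0.34 for adipocyte, -0.62 for cartilage and -2.46 for red cell markers. Fibroblast and macrophage markers had medians of -0.02 and -0.08. Medians were above 0 for endothelial (0.11), muscle fibre (0.26) and liver (3.42) markers. The part of these cell markers in the Lox and Col1a1 differences was not tested.

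P4ha3 and Pcolce were also lower in replicate 2 beyond counting error, with log2 ratios of -0.23 (-0.42 to -0.03) and -0.15 (-0.21 to -0.10). Plod3 and Loxl1 were higher beyond counting error, at 0.22 (0.10 to 0.35) and 0.13 (0.06 to 0.20). For P4ha1, P4ha2, Plod1, Plod2 and Serpinh1 the interval held 0, with values of -0.07, 0.12, -0.04, -0.11 and -0.03. Loxl1 and P4ha2 took the opposite sign when libraries were scaled by spike-ins, which moved all genes by -0.14, and Serpinh1 took it in the other quantification. The directions of these 3 genes are therefore not settled. Which intervals hold 0 also depends on the scaling. Under spike-in scaling, that of Plod3 held 0 (0.08, -0.04 to 0.20), as did those of Loxl1 and P4ha2, while those of P4ha1, Plod1, Plod2 and Serpinh1 did not, at -0.21, -0.18, -0.25 and -0.17. Lox, Pcolce and P4ha3 were lower in replicate 2 beyond counting error under each scaling tried on the gene tables. In the other quantification their ratios were -0.42, -0.11 and -0.16, and no counting interval was computed there. The Pcolce ratio is that of the whole gene, whose share on transcripts with a retained intron was 26.6% and 13.98%. Its leading coding transcript, ENSMUST00000031731.13, had 99.65 and 96.93 TPM, on 4260 and 4701 counts. A ratio for the Pcolce coding transcripts alone was not computed.

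**Figure D4:**
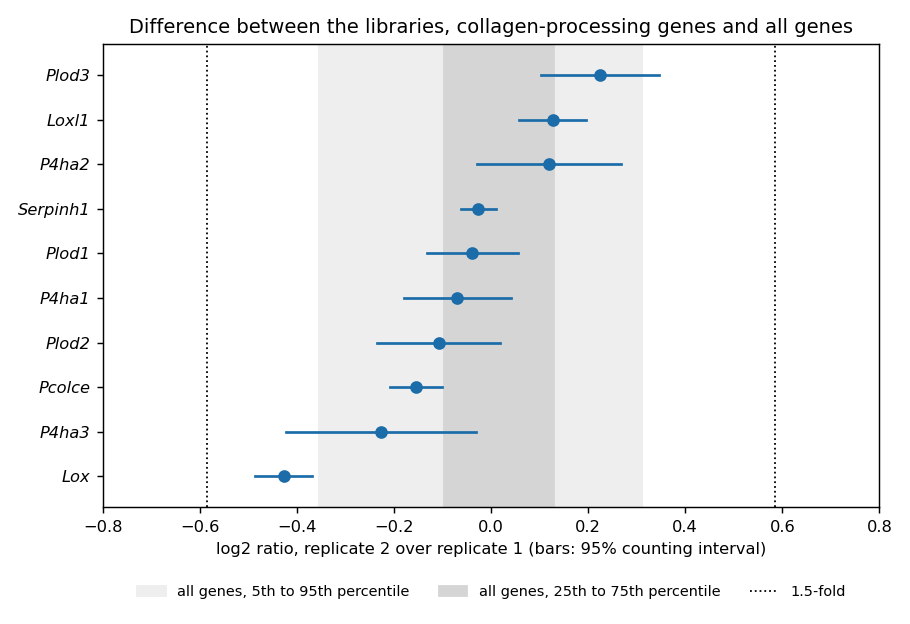
log2 ratio of replicate 2 over replicate 1 for each collagen-processing gene, with 95% counting intervals as bars, over a dark band for percentiles 25 to 75 and a light band for percentiles 5 to 95 of all genes, with dotted lines at 1.5-fold. Lox (-0.43) lies outside the light band and the other 9 genes lie inside it.

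The genes around this set were read as 6 lists, of which 62 of 65 genes were detected and 6 of the 61 averaging 100 counts or more differed over 1.5-fold, against 2.46% of all genes. The lists were chosen with earlier results of these data known. Endoplasmic reticulum partners were all detected (12 of 12), had a median log2 ratio of -0.01, and had none over 1.5-fold. The highest were P4hb, the prolyl isomerase Ppib (139 and 140 TPM) and Crtap (48.1 and 45.7 TPM), the partner of a prolyl 3-hydroxylase. Secretion genes were detected in 6 of 6 cases, with a median of -0.03 and none over 1.5-fold. Mia3, which loads procollagen into carriers, had 55.8 and 54.0 TPM, the coat protein gene Sec23a had 23.8 and 26.0 TPM, and its partner Sec24d had 24.4 and 23.6 TPM.

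Propeptide removal genes were detected in 6 of 7 cases and had a median log2 ratio of -0.07. Bmp1 had 39.2 and 36.4 TPM, the N-proteinase gene Adamts2 had 14.7 TPM in both libraries, and its relative Adamts14 had 6.41 and 6.73 TPM. Tll2, a Bmp1 relative, was at 0.21 TPM in both libraries. Adamts3, with 1.88 and 1.24 TPM, was the only member over 1.5-fold apart (log2 ratio -0.60), and it fell short of that fold in the other quantification (-0.56). Extracellular assembly genes were detected in 8 of 9 cases, with a median of 0.06. Postn, a matricellular protein gene linked to Bmp1 activity and Lox, had 600 and 576 TPM, and Tgm2, a transglutaminase, had 42.7 and 50.1 TPM. Fmod, a proteoglycan that binds fibrils and is abundant in tendon, had 88.0 TPM in replicate 1 and 41.6 TPM in replicate 2 (log2 ratio -1.08), the only member of that list over 1.5-fold apart. Loxl4 stayed under 1 TPM, at 0.72 and 0.93.

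The substrates, 17 genes for collagen chains and elastin, were all detected and had a median log2 ratio of -0.06. Col1a1, Col3a1 (2085 and 2085 TPM) and Col1a2 (1754 and 1261 TPM, log2 ratio -0.45) were the highest, and Col1a2 passed 1.5-fold under spike-in scaling alone (-0.60). The 3 genes for cartilage and fibril-core chains over 2-fold lower in replicate 2 were Col2a1 (17.5 and 7.72 TPM, -1.11), Col11a1 (36.7 and 16.9 TPM, -1.12) and Col11a2 (39.4 and 17.5 TPM, -1.17). Of all genes, 0.465% were that much lower. Tendon markers were also lower in replicate 2, as given above, and their part in this was not tested. Col2a1 is itself in the cartilage list: without it, the other 4 markers summed to 5.33 and 4.06 TPM. Of these, Acan was lower in replicate 2, at 3.86 and 2.58 TPM (log2 ratio -0.62). Sox9, a cartilage regulator, had 1.15 and 1.21 TPM, and Col9a1 had 0.3 and 0.27 TPM. The part of cartilage cells was not tested either. Targets of the hypoxia response, a pathway that in other cells raises P4ha and Plod transcription, were detected in 13 of 14 cases, with a median of 0.11. Ldha (516 and 608 TPM) and Pgk1 (187 and 216 TPM) were the highest. Both have pseudogene copies that may share reads. Vegfa had 39.2 and 37.4 TPM. Car9 had 1.15 TPM in replicate 1 and 0.46 TPM in replicate 2, on 62 and 22 counts, and Adm was lower in replicate 2, at 4.87 and 3.27 TPM (log2 ratio -0.65).

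**Figure D5:**
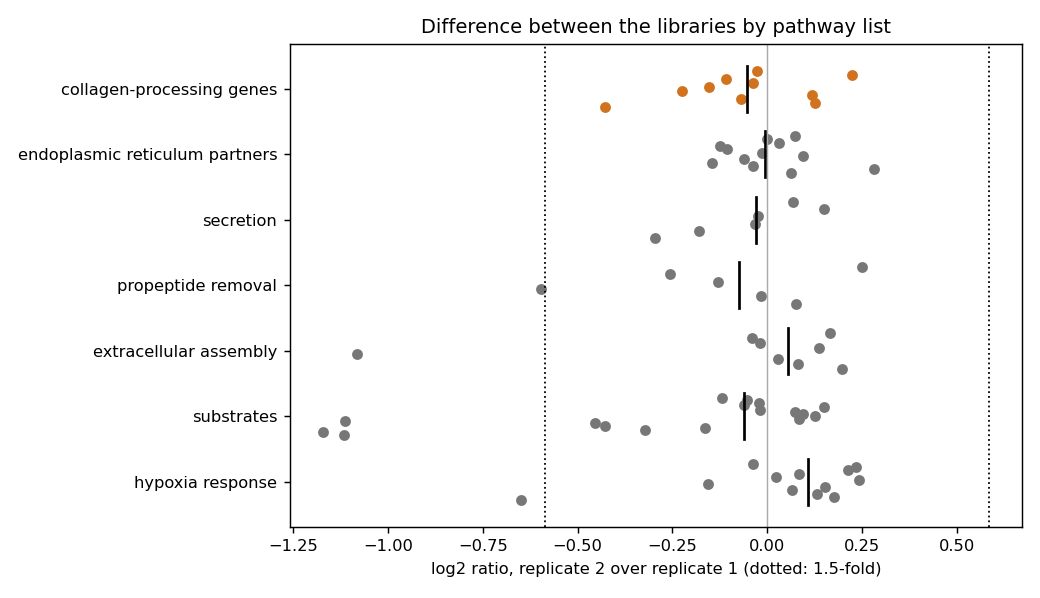
log2 ratio of replicate 2 over replicate 1 for each gene of the collagen-processing set and of the 6 pathway lists, with 1 point per gene averaging 100 counts or more, a bar at the median of the list and dotted lines at 1.5-fold. The list medians lie between -0.07 and 0.11, and the 6 points beyond the dotted lines are Col2a1, Col11a1, Col11a2, Fmod, Adm and Adamts3, with none from the collagen-processing set.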

How the data were processed

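Total RNA-seq libraries of gastrocnemius from 2 animals of 1 group were analysed. Per library, the authors' deposited files give expected counts and TPM by gene and by transcript. A second deposited transcript table has estimated counts and TPM from a separate run, which was summed per gene as the other quantification and lacked 86 genes. Per the labels and file headers genes of GENCODE M21 on mm10 were counted. The aligner, quantification programs and strand setting were not given in the sources used here. Reads of the CAST/EiJ allele were counted on a C57BL/6J reference, which can lower counts where the alleles differ. ERCC spike-ins held 215303 and 268427 of the expected counts.

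Detection meant at least 1 TPM in each library. Expected counts were rounded to whole numbers. With edgeR 4.0.16 (R 4.3.3), trimmed-mean scaling factors were set on genes averaging 10 counts or more. The log2 ratios of replicate 2 over replicate 1 used a prior count set to 2. Ratios were counted as over 1.5-fold or 2-fold by size alone among genes averaging 100 counts or more, because 1 library against 1 gives no test. Counting intervals (95%) cover counting error only: without molecular identifiers, reads are not independent molecules. Family shares were taken from TPM per library, and exon shares from the TPM of the coding transcripts that reach the exon. Exons were read from GENCODE M21 transcripts and aligned with Biopython 1.88. Scripts for ratios were tested on simulated data. Python 3.11.15, pandas 2.3.3 and matplotlib 3.10.9 were used for the rest.

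The 10 genes and all lists were chosen with earlier results of these data known. Every one of the 10 is named. Of each pathway list the 3 genes of highest mean TPM, those under 1 TPM and those over 1.5-fold apart are named. Relatives such as Loxl2 and Pcolce2 are named for their family share. As alternatives, scaling used spike-ins, library size or DESeq2 1.42.0 size factors, and further changes were other filters and prior counts, the other quantification, TPM recomputed after removing spike-ins and mitochondrial genes, shares by expected counts, and leaving out each replicate.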

Additional observations from a re-analysis of the deposited data

How the results depend on the processing

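Of 278 alternative values over 57 results, 63 moved beyond a tolerance and the others stayed within it. The tolerance was the spread between libraries for levels and shares, the counting error for log2 ratios, and 1.5 times for counts of genes. Levels and shares from a single replicate lie within that spread by definition, so their staying carries no information. No called direction could reverse, because none of the 10 genes was over 1.5-fold apart. Changes of sign in uncalled values, as in Loxl1, P4ha2 and Serpinh1, were not counted as reversals. Levels moved most with the other quantification, which gave means of 27.7 TPM for P4ha1, 32.8 for P4ha2, 13.8 for P4ha3, 34.1 for Plod1, 18.8 for Plod2, 28.1 for Plod3, 329 for Serpinh1, 58.7 for Lox, 53.6 for Loxl1 and 303 for Pcolce. Without spike-ins and mitochondrial genes in the total the means were 17.2 for P4ha1, 15.6 for P4ha2, 23.3 for Plod1, 11.97 for Plod2, 18.8 for Plod3, 229.9 for Serpinh1 and 38.9 for Loxl1. With spike-in scaling the median log2 ratio of the 10 genes was -0.20. Removing spike-ins and mitochondrial genes raises every level of a library by the same factor, and spike-in scaling moved all genes by -0.14. The cause of the moves with the other quantification was not tested.

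In the other quantification the family shares were 37.3% for P4ha1, 44.1% for P4ha2 and 98.2% for Pcolce. By expected counts, which do not correct for length, they were 53.2% for P4ha1, 29.6% for P4ha2, 17.2% for P4ha3, 46.3% for Plod1, 25.4% for Plod2, 28.2% for Plod3, 22.5% for Loxl1, 41.0% for Loxl2 and 97.3% for Pcolce. The exon alternatives were chosen after seeing the data. In the other quantification the exon shares were 78.8% for the Plod2 cassette exon, 83.4% for the P4ha1 downstream exon, 62.5% for the P4ha1 240-nt exon and 56.9% for the P4ha2 downstream exon, and by expected counts the P4ha1 downstream exon had 79.8%. Of all coding transcripts, the P4ha2 downstream exon was in 54.3%. No alternative put any of the 10 genes over 1.5-fold apart, and Lox ranged between -0.57 and -0.42 on the log2 scale. No paired analysis was possible because the series holds 1 group. With 2 animals, levels closer than their spread cannot be ordered.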

Other observations

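The annotated transcripts of the 10 genes differed in type. For Lox, Loxl1, P4ha1 and Serpinh1 only coding transcripts are annotated (2, 1, 3 and 7), so all of their level is coding by the annotation. Transcripts with a retained intron held 16.4% ± 4.801 of the Plod2 level, 15.2% ± 2.51 of the Plod3 level, 15.2% ± 8.10 of the P4ha2 level and 2.80% ± 1.94 of the Plod1 level (SD, n = 2 each). In the other quantification these shares were 17.9% for Plod2, 32.8% for Plod3, 14.4% for P4ha2 and 2.80% for Plod1. Total RNA libraries also hold unspliced RNA, and its part in these shares was not tested. For P4ha3 the quantifications disagreed on the transcript. The gene tables' quantification gave 66.1% of the level to the coding transcript ENSMUST00000057023.11 and 0% to ENSMUST00000139790.7, annotated for nonsense-mediated decay, whereas the other quantification gave 56.9% to the second of these. These transcripts differ at the end of the first exon.

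Several of the genes share a chromosome. Serpinh1 and P4ha3 lie 932 kb apart on chromosome 7, and Plod3 and Pcolce lie 608 kb apart on chromosome 5. Their levels differed, at 209 and 7.48 TPM for the first pair and 17.0 and 152 TPM for the second.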
